A study of Glycine max with 10 samples.

Results

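GASA genes encode short secreted peptides with a cysteine-rich end. Their transcripts were followed here through the filling and drying of the soybean seed. The members are the 20 probe sets, of 37593 on the array, whose entry in the probe-to-gene table was a single gene with a symbol beginning with GASA. They stand for 16 genes, and all 16 matched a gene of the RefSeq soybean annotation by gene ID. That annotation lists 33 GASA genes, so 17 have no probe set among the members. GASA14 has 3 probe sets, GASA27 and GASA32 have 2 each, and the other 13 genes have 1. The choice of members used names and no signal. At the last age, 50 days after flowering, GASA12 kept 0.590% of the signal it had at 25 days, 2 of the 3 probe sets of GASA14 stood higher, by a call that depended on how the arrays were scaled, and GASA22 stood at 69.8%, or 0.98 log2 lower on the signals as deposited.

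The family is named for Gibberellic Acid Stimulated in Arabidopsis, and its relatives include GAST1 of tomato and the antimicrobial snakins of potato. Transcripts of many members respond to gibberellin, the hormone that promotes cell elongation and germination. Within the family, some members follow the hormone upward and others are held down by it. In Arabidopsis, members have been tied to flowering, to seed size and to cell expansion. The soybean numbers name soybean genes and do not stand for the Arabidopsis genes of the same number.

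Whole seeds of the soybean variety Evans, grown in the field with no treatment, were taken at 5 ages counted in days after flowering (DAF), namely 25, 30, 40, 45 and 50 DAF. Each age had 2 replicates, and each replicate was 1 Affymetrix soybean array. By the study's methods, pods of several plants were pooled for each replicate. RNA came from only a few seeds of these pods, fewest at 45 DAF. A pool of whole seeds mixes embryo, seed coat and other tissues, so fewer cells of a type and less RNA per cell cannot be told apart. Signals are given here as MAS 5.0 values rescaled so that every array has a median of 309.9, replicate 1 first, and a rise or fall is a change in log2 signal with an adjusted p under 0.05 in limma.

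Before rescaling, the array medians were 303.8 to 325.2 from 25 to 45 DAF and 220.8 and 222.8 at 50 DAF. Centring therefore moved every change from 25 to 50 DAF by 0.46 log2 upward, and small changes to 50 DAF depend on it. Replicates correlated at 0.919 to 0.927 over all probe sets at 4 of the ages and at 0.880 at 45 DAF. The second 45 DAF array correlated with the 50 DAF arrays at 0.861, against 0.770 for the first. The 6 glycinin and conglycinin genes, which mark the storage tissue of the cotyledon, had a summed signal over 10 probe sets of 379081 to 530133 on all 10 arrays, although 1 of those probe sets rose and 1, of GY3, fell from 45 to 50 DAF, and 1 rose and 2 fell from 25 to 50 DAF.

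Over all ages, 10 of the 20 GASA probe sets changed (limma F-test, adjusted p under 0.01), where 24% of all probe sets did. The 10 belonged to GASA3, GASA4, GASA9, GASA12, GASA13, GASA14, GASA27, GASA29 and GASA34. This count fell to 2 without the first 50 DAF array and to 5 without the second, and to 0 where the variance was not let to follow the signal. From 45 to 50 DAF, 10 members fell, against 12.6% of all probe sets, and 0 rose, against 18.6%. The median change of all 20 members over that step, called or not, was -1.45 log2 (0.19 over all probe sets). From 25 to 50 DAF, 9 members fell (19.3% of all probe sets) and 2 rose (24.6%).

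The earlier steps held no called change among the members. No probe set of the family passed in limma from 25 to 30 DAF (0.0106% of all probe sets), and 0 had an unadjusted p under 0.05. From 30 to 40 DAF 0 passed (1.16% of all), although 6 had an unadjusted p under 0.05. They were GASA9, GASA13, GASA24 and GASA29 on the lower side and 2 probe sets of GASA14 on the higher side. From 40 to 45 DAF 0 passed (0% of all), and 1 had an unadjusted p under 0.05, a GASA27 probe set. Without the second 45 DAF array, or without the first, GASA9 and GASA29 passed as falls from 30 to 40 DAF and 2 probe sets of GASA14 as rises. Without the first, GASA4 and GASA9 also passed as falls from 40 to 45 DAF. Calls over all probe sets rose as well in these fits over these steps.

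**Figure D1:**
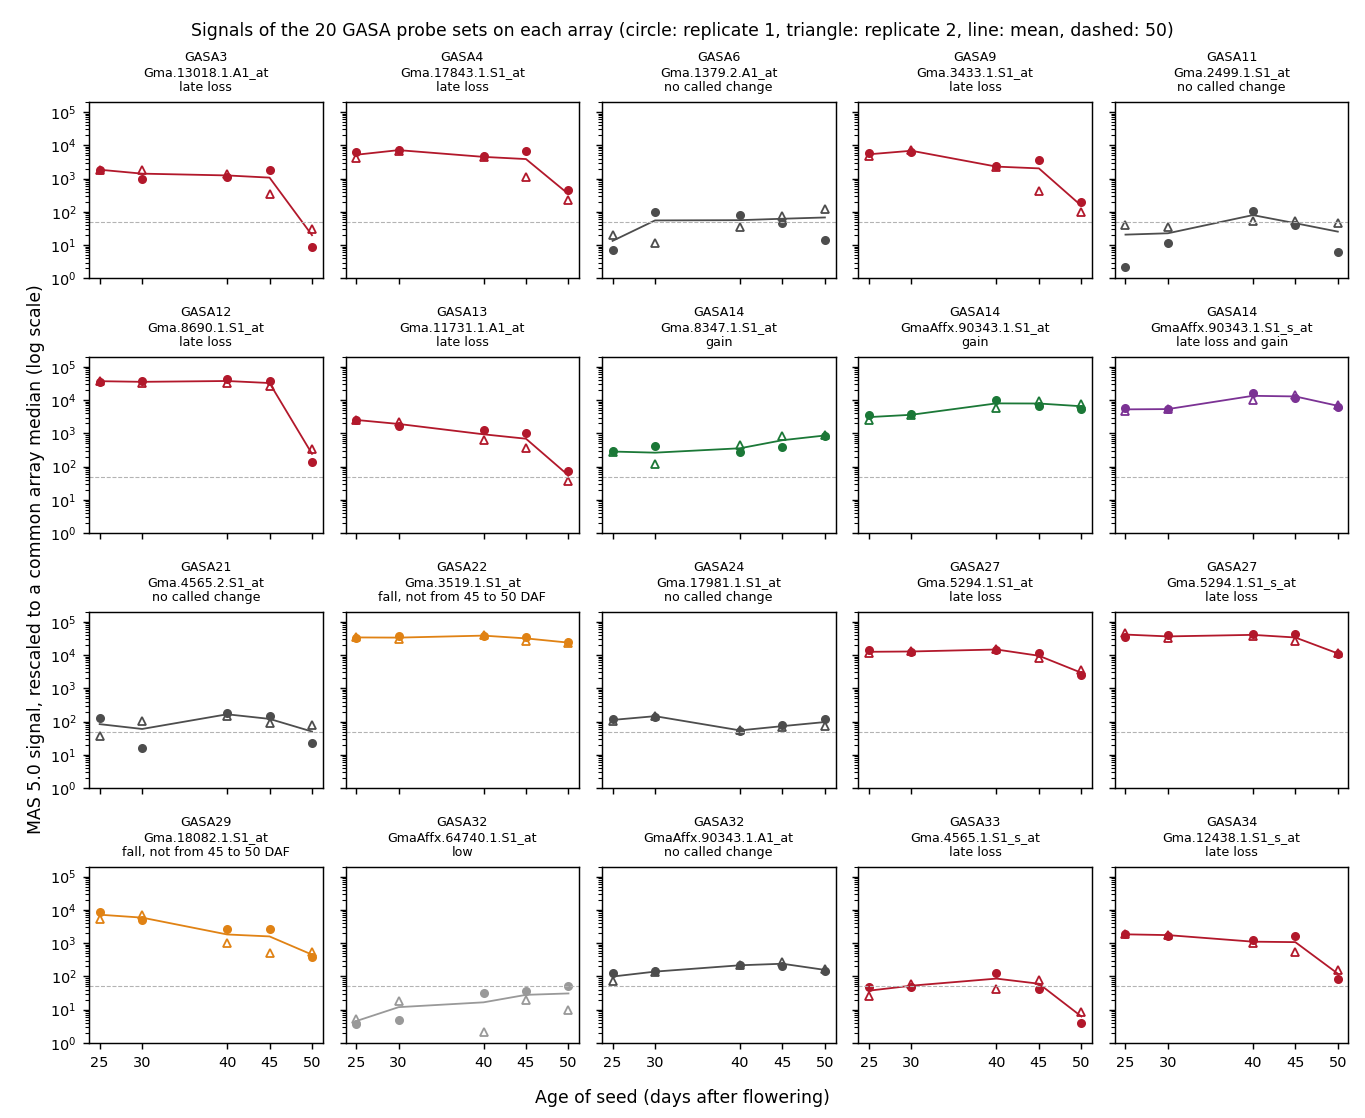
Rescaled MAS 5.0 signal (log axis) of each of the 20 GASA probe sets against seed age in days after flowering, with circles for replicate 1, triangles for replicate 2, a line through the means and a dashed line at 50. Red panels hold the 9 probe sets that fell from 45 to 50 DAF, purple the GASA14 probe set that both rose and fell, green those that rose, orange those that fell otherwise, and grey those with no called change or a low signal.

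GASA12 carried the deepest fall of the members. Its signals (Gma.8690.1.S1_at) were 35645 and 38537 at 25 DAF, 38535 and 32381 at 30 DAF, 42972 and 32179 at 40 DAF, 38011 and 27247 at 45 DAF, and 137 and 348 at 50 DAF. The 8 arrays up to 45 DAF stayed between 27247 and 42972, and both 50 DAF arrays lay far beneath them. The change from 45 to 50 DAF was -7.20 log2 (SE 0.39, adjusted p = 8.10e-05 in limma), a 147-fold loss that left 0.680% of the 45 DAF signal. Of its whole log2 fall since 25 DAF, 2.75% had taken place by 45 DAF. None of the alternative settings or left-out arrays ended the call from 45 to 50 DAF for GASA12, GASA3, GASA4, GASA13, GASA34 or either GASA27 probe set.

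GASA3 was reduced to signals under 50 at the last age. Its signals (Gma.13018.1.A1_at) were 1868 and 1818 at 25 DAF, 996 and 1812 at 30 DAF, 1144 and 1338 at 40 DAF, 1783 and 349 at 45 DAF, and 8.73 and 31.0 at 50 DAF. The second 45 DAF array stood beneath the 7 other arrays up to that age, at 19.6% of the first. The fall from 45 to 50 DAF was -5.58 log2 (SE 0.77, adjusted p = 0.00126 in limma). With no detection call for the 50 DAF signals its size is uncertain, and with 50 added to every signal it was -3.63 (adjusted p = 0.00152), against -6.88 for GASA12.

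GASA4 and GASA34 both stood near their 25 DAF signals on the first 45 DAF array, after lower signals at 40 than at 30 DAF. GASA4 (Gma.17843.1.S1_at) gave 6115 and 4256 at 25 DAF, 7356 and 6928 at 30 DAF, 4616 and 4344 at 40 DAF, 6594 and 1101 at 45 DAF, and 453 and 229.9 at 50 DAF. GASA34 (Gma.12438.1.S1_s_at) gave 1819 and 1858 at 25 DAF, 1669 and 1813 at 30 DAF, 1216 and 995 at 40 DAF, 1614 and 527 at 45 DAF, and 82.6 and 159.6 at 50 DAF. In both, the 50 DAF arrays lay under all 8 earlier ones. From 45 to 50 DAF GASA4 fell by 3.06 log2 (SE 0.51, adjusted p = 0.00275 in limma). GASA34 fell by 3.01 log2 (SE 0.49, adjusted p = 0.00236 in limma). The GASA34 probe set carries the _s_at suffix, by which the maker marks probes shared by several transcripts, so its signal may hold more than 1 transcript.

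GASA27 fell less deeply and on both of its probe sets. The first (Gma.5294.1.S1_at) gave 13671 and 11263 at 25 DAF, 12449 and 13041 at 30 DAF, 13651 and 15588 at 40 DAF, 11105 and 7855 at 45 DAF, and 2422 and 3421 at 50 DAF. The second (Gma.5294.1.S1_s_at) gave 35602 and 46537 at 25 DAF, 38877 and 33460.2 at 30 DAF, 42865 and 37676 at 40 DAF, 41477 and 25603 at 45 DAF, and 10429 and 11863 at 50 DAF. It has the cluster number of the first and the _s_at suffix of shared probes, so its signal may hold several transcripts. The 50 DAF arrays were the lowest on both, yet 23.2% and 27.3% of the 25 DAF signal remained. The changes from 45 to 50 DAF were -1.70 log2 (SE 0.25) and -1.55 log2 (SE 0.27), with adjusted p = 0.00154 and 0.00303 in limma.

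GASA9, GASA13 and GASA29 had lower means at 40 and 45 DAF than at 25 and 30 DAF, as had GASA3, GASA4 and GASA34. GASA9 (Gma.3433.1.S1_at) gave 5947 and 4774 at 25 DAF, 6472 and 7214 at 30 DAF, 2307 and 2262 at 40 DAF, 3633 and 408 at 45 DAF, and 204 and 101 at 50 DAF. Both 40 DAF arrays were under all 4 earlier ones, but its change from 25 to 45 DAF was not called (-2.13, adjusted p = 0.0893 in limma). Its fall from 45 to 50 DAF was -3.09 log2 (SE 0.66, adjusted p = 0.00759 in limma), and without the first 50 DAF array it was -3.18 with an adjusted p of 0.0509. By 40 DAF it had gone through 23.4% of its log2 fall and by 45 DAF through 40.8%.

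Like GASA3, GASA29 and GASA34, GASA13 had a lower mean at each later age. Its signals (Gma.11731.1.A1_at) were 2612 and 2465 at 25 DAF, 1618 and 2227 at 30 DAF, 1227 and 652 at 40 DAF, 1032 and 353 at 45 DAF, and 73.1 and 35.9 at 50 DAF. The 40 and 45 DAF arrays were all beneath the 25 and 30 DAF arrays, and overlapped each other. From 25 to 45 DAF it changed by -2.07 log2 (SE 0.44, adjusted p = 0.0307 in limma), a call that was lost without any one of the 25 or 40 DAF arrays (adjusted p = 0.0564 to 0.277) and without the second 45 DAF array (-1.49, adjusted p = 0.123). A further change of -3.56 log2 followed from 45 to 50 DAF (SE 0.44, adjusted p = 0.000804 in limma). It left 2.02% of the 25 DAF signal. With no detection call for the dim 50 DAF signals, the size of this fall is uncertain. With 50 added to every signal it was -2.68 (adjusted p = 0.00101 in limma).

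GASA29 was the member whose fall lay most before 40 DAF. Its signals (Gma.18082.1.S1_at) were 8832 and 5471 at 25 DAF, 4796 and 6874 at 30 DAF, 2602 and 1041 at 40 DAF, 2664 and 514 at 45 DAF, and 375 and 528 at 50 DAF. By 40 DAF, 52.4% of its log2 fall was complete. The second 45 DAF array, at 19.3% of the first, lay within the 50 DAF signals. The change from 25 to 45 DAF was -2.57 log2 (SE 0.61, adjusted p = 0.0425 in limma) and from 25 to 50 DAF -3.97 (adjusted p = 0.000777). The former was not called without any one of the 25 or 40 DAF arrays (adjusted p = 0.0683 to 0.269), without the second 45 DAF array (-1.51, adjusted p = 0.169) or after quantile normalization (adjusted p = 0.0515). From 45 to 50 DAF it was -1.40 and was not called (adjusted p = 0.114), whereas it was -2.46 without the second 45 DAF array (adjusted p = 0.00393). In the RefSeq annotation GASA29 is the direct neighbour of another member of the family, GASA28, which has no probe set.

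From 25 to 45 DAF, 2 members fell in all (3.14% of all probe sets), GASA13 and GASA29, and 2 rose (2.87%), both of them probe sets of GASA14. On 10 of the 20 members both 50 DAF signals lay under all 8 earlier ones, where 18.1% of all probe sets showed this. From 40 to 50 DAF 12 members fell, against 15.2% of all probe sets, the 10 of the step from 45 DAF with GASA22 and GASA29. The GASA29 fall over that interval was lost without any one of the 25 or 40 DAF arrays (adjusted p = 0.0628 to 0.219) and without the first 50 DAF array (-1.16, adjusted p = 0.291). Those of GASA33 and of the GASA14 probe set with shared probes were also lost without the first 40 DAF array (adjusted p = 0.150 and 0.187) or the first 50 DAF array (adjusted p = 0.0963 and 0.159).

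**Figure D2:**
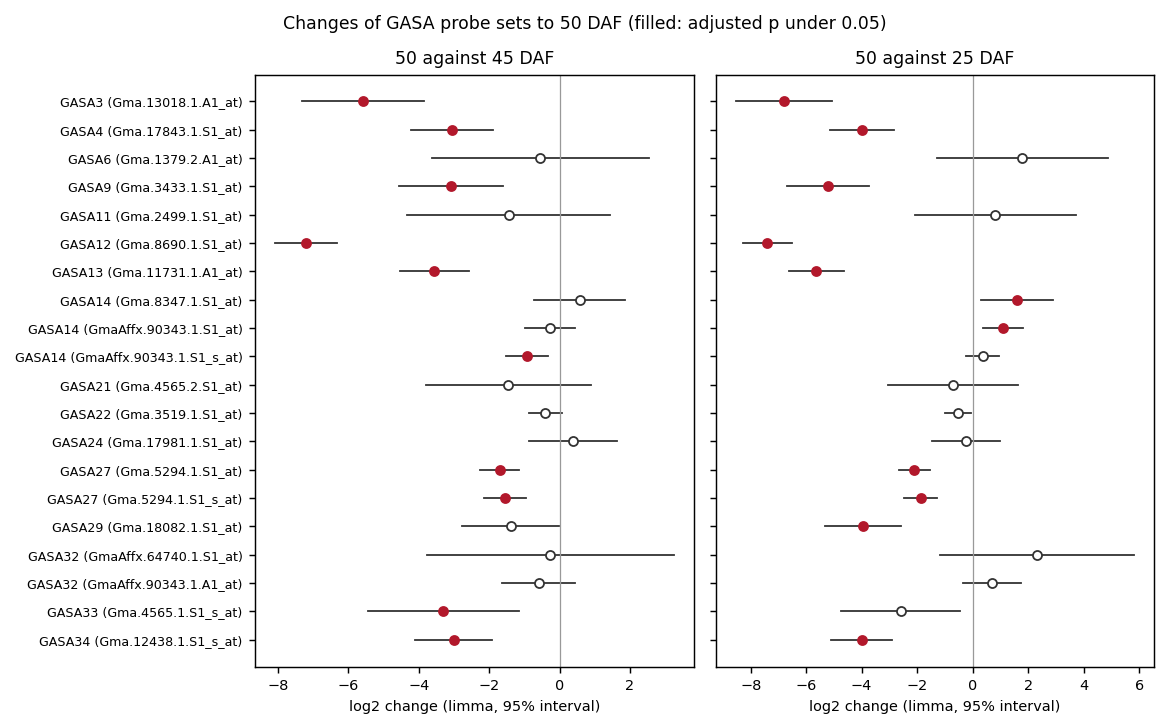
Change in log2 signal of the 20 GASA probe sets from 45 to 50 DAF (left) and from 25 to 50 DAF (right), as limma estimates with 95% intervals, filled where the adjusted p was under 0.05. In the left panel all 10 filled points lie to the left of 0, with GASA12 at -7.20, and in the right panel 2 GASA14 probe sets lie filled to the right, at 1.60 and 1.08.

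GASA14 held all the called rises among the members. On its probe set GmaAffx.90343.1.S1_at the signals were 3564 and 2616 at 25 DAF, 3774 and 3490.2 at 30 DAF, 10136 and 5834 at 40 DAF, 6466 and 9360.3 at 45 DAF, and 5409.6 and 7685 at 50 DAF. All 6 arrays from 40 DAF on were above the 4 earlier ones. The step from 45 to 50 DAF was not called (-0.27, adjusted p = 0.570 in limma). After quantile normalization it was called as a fall (-0.99, adjusted p = 0.0479), as was that from 40 to 50 DAF (-0.97, adjusted p = 0.0423). The change from 25 to 45 DAF was 1.35 log2 (SE 0.32, adjusted p = 0.0430 in limma), and from 25 to 50 DAF it was 1.08 (adjusted p = 0.0219). The latter was not called on the signals as deposited (0.62, adjusted p = 0.151) or after quantile normalization (0.48, adjusted p = 0.260), while the change to 45 DAF was called under both (1.39 and 1.47, adjusted p = 0.0392 and 0.0338). The change to 45 DAF was not called without any one of the 25, 30 or 50 DAF arrays (adjusted p = 0.0508 to 0.319) or the second 45 DAF array (0.98, adjusted p = 0.185), nor the change to 50 DAF without the second 25 DAF array (0.84, adjusted p = 0.177) or the second 50 DAF array (0.72, adjusted p = 0.191).

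The shared probe set GmaAffx.90343.1.S1_s_at rose to 40 DAF and fell again after 45 DAF. Its signals were 5974 and 4579 at 25 DAF, 5445 and 5318 at 30 DAF, 16712 and 10252 at 40 DAF, 11370 and 14439 at 45 DAF, and 6212 and 7286 at 50 DAF. The 40 and 45 DAF arrays stood apart above all other arrays. From 25 to 40 DAF it rose by 1.32 log2 (adjusted p = 0.0337 in limma), the 1 member called higher over that interval (1.55% of all probe sets). From 45 to 50 DAF it changed by -0.93 log2 (SE 0.26, adjusted p = 0.0249), and by -0.65 without the second 45 DAF array (adjusted p = 0.105) and -0.72 without the first 50 DAF array (adjusted p = 0.198). The rise to 40 DAF was lost without any one of the 25, 30, 40 or 50 DAF arrays (adjusted p = 0.0519 to 0.308), and the rise to 45 DAF without either of the 25 DAF arrays or the second 45 DAF array (adjusted p = 0.101 to 0.254). Its change from 25 to 50 DAF was 0.36, or -0.10 on the signals as deposited and -0.22 after quantile normalization, and was called under none of the 3.

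The third GASA14 probe set, Gma.8347.1.S1_at, was raised at the end. It gave 298 and 272 at 25 DAF, 404 and 124 at 30 DAF, 272 and 443 at 40 DAF, 403 and 846 at 45 DAF, and 809 and 923 at 50 DAF. Only the second 45 DAF array fell within the range of the 50 DAF arrays. Its change from 25 to 50 DAF was 1.60 log2 (SE 0.57, adjusted p = 0.0474 in limma), and it was not called on the signals as deposited (1.14, adjusted p = 0.139) or after quantile normalization (1.36, adjusted p = 0.0966). It was also not called without any one of the 25, 40 or 50 DAF arrays (adjusted p = 0.0581 to 0.197). The 3 probe sets of this gene thus gave 3 courses. GmaAffx.90343.1.S1_at and GmaAffx.90343.1.S1_s_at share their cluster number with a GASA32 probe set, GmaAffx.90343.1.A1_at. They correlated with it at 0.876 and 0.873, and with the third GASA14 probe set at 0.539 and 0.276. Whether these probe sets measure different transcripts or genes was not tested.

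The course of GASA22 after 45 DAF depended on the scaling. Its signals (Gma.3519.1.S1_at) were 32716 and 34675 at 25 DAF, 36780.3 and 29757 at 30 DAF, 37683 and 38682 at 40 DAF, 35918 and 27124 at 45 DAF, and 24479 and 22577 at 50 DAF. The 50 DAF arrays were the lowest, at 69.8% of the 25 DAF signal. The fall from 40 to 50 DAF was -0.70 log2 (SE 0.21, adjusted p = 0.0269 in limma), and was not called without any one of the 40 or 50 DAF arrays (adjusted p = 0.0766 to 0.188). From 25 to 50 DAF it was -0.52 (adjusted p = 0.0722), which became -0.98 on the signals as deposited and was called there (adjusted p = 0.00600), as it was without the first or the second 45 DAF array (adjusted p = 0.0442 and 0.0453). From 45 to 50 DAF it was -0.41 and not called (adjusted p = 0.175), but -0.91 as deposited (adjusted p = 0.0140) and -1.01 after quantile normalization (adjusted p = 0.00790), both called.

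GASA33, on a probe set with shared probes (Gma.4565.1.S1_s_at), was near the low end of the array throughout. It gave 49.2 and 25.4 at 25 DAF, 48.0 and 57.3 at 30 DAF, 129.7 and 42.0 at 40 DAF, 42.6 and 78.0 at 45 DAF, and 3.97 and 8.57 at 50 DAF. The 50 DAF signals lay under all 8 earlier ones. Its change from 45 to 50 DAF was -3.30 log2 (SE 0.95, adjusted p = 0.0273 in limma), and it was not called without either 45 DAF array (adjusted p = 0.0564 and 0.137), without the first 50 DAF array (adjusted p = 0.156) or with 50 added to every signal (-0.95, adjusted p = 0.0796).

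The other 6 probe sets showed no called change between any pair of ages. GASA24 (Gma.17981.1.S1_at) ranged from 51.5 to 149 over the 10 arrays, with both 40 DAF arrays lowest at 51.5 and 57.0. GASA21 (Gma.4565.2.S1_at) ranged from 16.5 to 186, with replicates as far apart as 16.5 and 103 at 30 DAF. GASA6 (Gma.1379.2.A1_at) ranged from 7.20 to 121, with replicates of 11.5 and 98.9 at 30 DAF, and GASA11 (Gma.2499.1.S1_at) from 2.24 to 107, with replicates of 2.24 and 39.1 at 25 DAF. GASA32 had 1 probe set (GmaAffx.64740.1.S1_at) whose mean stayed under 50 at every age, between 2.09 and 52.0 on the single arrays. Its other probe set (GmaAffx.90343.1.A1_at) shares a cluster number with GASA14 probe sets and ranged from 74.4 to 278. It stood at 202 and 278 on the 45 DAF arrays and at 124 and 74.4 on the 25 DAF arrays. The interval of its change from 25 to 50 DAF ran from -0.33 to 1.75 log2. The deposited table gives no detection calls, so whether the dimmest of these were above background is unknown.

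The replicates of 45 DAF differed in many of the members that fell. The second array held 11.2% of the signal of the first in GASA9, 16.7% in GASA4, 19.3% in GASA29, 19.6% in GASA3, 32.7% in GASA34 and 34.2% in GASA13. In GASA27 it held 70.7% and 61.7% on the 2 probe sets, and in GASA12 71.7%. On the remaining members that fell from 45 to 50 DAF the second array was the higher, at 183% in GASA33 and 127% in the shared GASA14 probe set. The order of loss on that array was thus not the order of loss at 50 DAF, where GASA12 was reduced furthest of the members. Of the 10 members that fell from 45 to 50 DAF, 5 were lower by over 1 log2 on the second array than on the first. The same held for 28.5% of the 4749 probe sets that fell over that step and for 15.9% of all probe sets. Without that array the calls from 45 to 50 DAF gained GASA29 and lost GASA33 and the shared GASA14 probe set. Calls over all probe sets rose in that fit as well. Without the first 45 DAF array, GASA3, GASA4, GASA9 and GASA34 also passed as falls from 25 to 45 DAF, with changes from -1.90 log2 in GASA34 (adjusted p = 0.00650 in limma) to -3.56 in GASA9 (adjusted p = 0.000165).

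**Figure D3:**
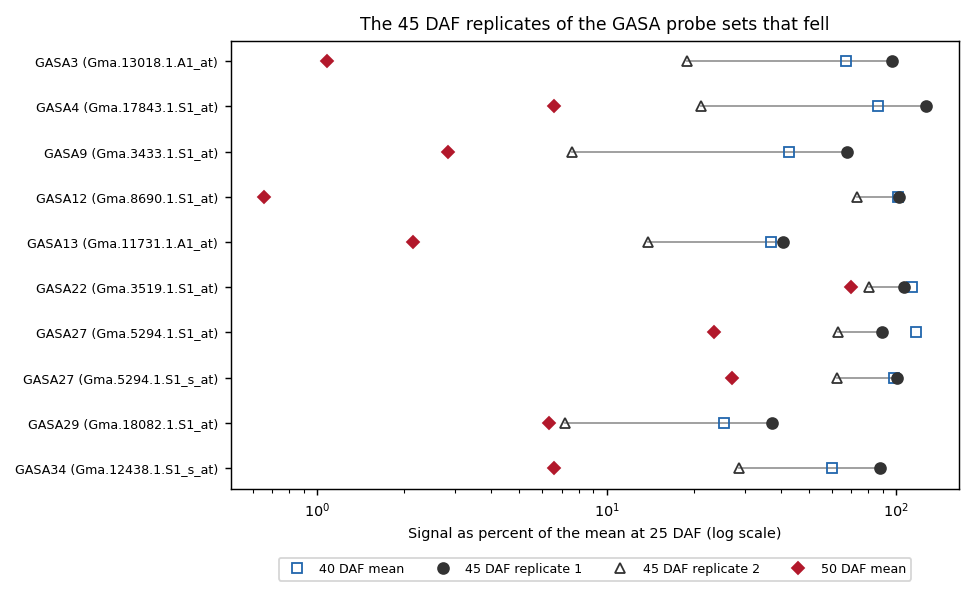
Signal as a percent of the 25 DAF mean (log axis) for the GASA probe sets that fell. GASA33 and the shared GASA14 probe set are not shown. Squares mark the 40 DAF mean, circles and triangles the first and second 45 DAF replicates, and diamonds the 50 DAF mean. The replicates lie far apart for GASA9, GASA4, GASA29 and GASA3, where the second array held 11.2% to 19.6% of the first, and close together for GASA12 at 71.7%.

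The 9 probe sets of late loss ran alike over the 10 arrays. Pearson's r of their centred log2 signals over the 36 pairs ranged from 0.639 to 0.986 with a median of 0.927. This is a description only, since all pairs share the same arrays and the drop at 50 DAF by which the 9 were classed. The genes outside the family most like each member were sought among 727 probe sets with an informative symbol, a mean signal at or above the array median and a range of at least 1 log2. For GASA12 they were PIP2-4, an aquaporin of the plasma membrane (r = 0.994), SFERH-2, a ferritin that stores iron (0.993), and MFT, a relative of the flowering protein FT that acts in seed germination in Arabidopsis (0.992). For GASA3 they were GT4 (0.997), KTI-3, a Kunitz trypsin inhibitor (0.996), and WNK3, a protein kinase (0.994).

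GASA4 ran with SWEET13, a sugar transporter (0.990), G6PDH, which opens the pentose phosphate pathway (0.985), and GY3, a glycinin storage protein (0.979). GASA13 was most like GDH2, a glutamate dehydrogenase (0.993), and GASA9 most like PAP25, a purple acid phosphatase (0.990). GASA29 was most like CHI1B1, a chalcone isomerase of flavonoid synthesis (0.978), and GASA34 most like SGT2 (0.990). The GASA27 probe sets were led by SUBI-1, a ubiquitin (0.985), and SWEET24, a sugar transporter (0.984). The GASA14 probe set GmaAffx.90343.1.S1_at was most like VPE2, a vacuolar processing enzyme that cleaves storage proteins (0.971), and the shared GASA14 probe set most like BZIP59, a transcription factor (0.963). GASA22 was most like a pair of further bZIP factors, BZIP132 (0.938) and BZIP126 (0.937). Each r is over the same 10 arrays.

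A list of genes for gibberellin synthesis, breakdown and signalling held 9 probe sets of 5 genes. From 45 to 50 DAF 4 of them rose and 2 fell (18.6% and 12.6% of all probe sets), and from 25 to 50 DAF 5 rose and 3 fell (24.6% and 19.3%). GA2OX8, a GA2-oxidase that inactivates gibberellins, gave 325 and 199.7 at 25 DAF, 387 and 356 at 30 DAF, 380.2 and 297 at 40 DAF, 307 and 7448 at 45 DAF, and 28790.4 and 32109 at 50 DAF on GmaAffx.87970.1.A1_at. The rise was held by the second 45 DAF array and both 50 DAF arrays, the other 7 lying between 199.7 and 387. It was 4.33 log2 from 45 to 50 DAF (SE 1.05, adjusted p = 0.0133 in limma), and a second probe set (GmaAffx.47138.1.A1_at) rose by 4.94 (adjusted p = 0.0129). Both calls were lost without either of the 50 DAF arrays (adjusted p = 0.0508 to 0.1000) and without the variance trend (adjusted p = 0.0645 and 0.0669), and the rises were 6.76 and 7.54 without the second 45 DAF array and 1.90 and 2.34 without the first. From 25 to 50 DAF the rises of 6.90 and 7.31 log2 stayed called under every alternative.

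GA2OX6, another GA2-oxidase, rose over the same step on both probe sets, by 1.60 and 1.54 log2 (limma, adjusted p = 0.0169 and 0.0236). Neither rise was called on the signals as deposited (adjusted p = 0.0660 and 0.0924). The same held after quantile normalization (0.94 and 1.08, adjusted p = 0.129 and 0.107 in limma). Both were also lost without the first 45 DAF array (0.80 and 0.74) or without either of the 50 DAF arrays. GA20OX3, a GA20-oxidase of the last part of gibberellin synthesis (Gma.13649.1.A1_at), gave 315 and 339 at 25 DAF, 336 and 393 at 30 DAF, 126 and 108 at 40 DAF, 213 and 116 at 45 DAF, and 50.2 and 7.01 at 50 DAF. All 4 arrays of 25 and 30 DAF stood above the 6 later ones. Its change from 45 to 50 DAF was -3.07 log2 (adjusted p = 0.0131 in limma), a call lost without the first 45 DAF array (-2.97, adjusted p = 0.0545) and the second 50 DAF array (-1.74, adjusted p = 0.0629), and from 25 to 50 DAF it was -4.12 (adjusted p = 0.00181).

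The DELLA proteins GAI1 and GAI2, which repress gibberellin responses, were called over different steps between neighbouring ages. GAI2 (Gma.13297.1.S1_at) changed by -2.30 log2 from 45 to 50 DAF (adjusted p = 0.00188 in limma), with 1512 and 870 at 45 DAF and 191 and 282 at 50 DAF. Its other probe set (Gma.13297.1.A1_at) was not called over that step. From 25 to 50 DAF that probe set was called lower (-3.02 log2). The call was lost after quantile normalization (-2.67, adjusted p = 0.0666 in limma) and without the variance trend (adjusted p = 0.0605). It was also lost without the replicate block (adjusted p = 0.0521 in limma), without the second 25 DAF array (-1.97) and without any one of the 40 or 50 DAF arrays. GAI1 (Gma.2533.1.S1_at) rose by 1.92 log2 from 30 to 40 DAF (adjusted p = 0.0358), from 760 and 578 to 2023 and 3123, while its other probe set was not called. The GAI1 rise was lost without any one of the 25, 30, 40 or 50 DAF arrays (adjusted p = 0.0514 to 0.390). A probe set the study's annotation ties to the gibberellin receptor GID1B of Arabidopsis, chosen after its values were seen, gave 953 to 1487 on the 8 arrays up to 45 DAF and 4505 and 4082 at 50 DAF (GmaAffx.81366.1.S1_at). It rose by 1.63 log2 from 45 to 50 DAF (adjusted p = 0.00074 in limma).

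**Figure D4:**
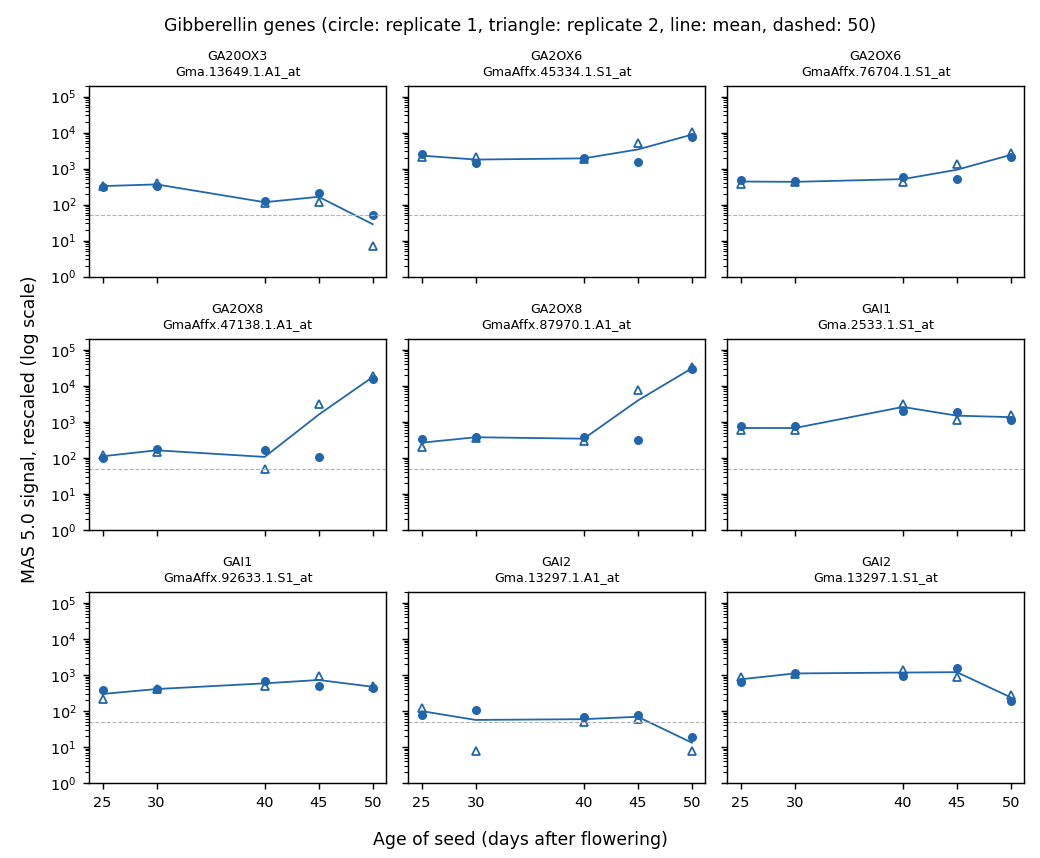
Rescaled MAS 5.0 signal (log axis) of the 9 probe sets of the gibberellin list against seed age in days after flowering, with circles for replicate 1, triangles for replicate 2, a line through the means and a dashed line at 50. Both GA2OX8 probe sets stay low up to the first 45 DAF array and rise on the second and at 50 DAF, while GA20OX3 and GAI2 are lowest at 50 DAF.

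Cell wall loosening genes, through which gibberellin can act on growth, held calls in both directions over the last step. Of 8 probe sets of 6 genes, 1 rose and 2 fell from 45 to 50 DAF (18.6% and 12.6% of all probe sets). The expansin EXP1 changed by 1.89 log2 (adjusted p = 0.0139 in limma), from 320.01 and 1273 to 2434 and 2290. It was not called after quantile normalization (1.45, adjusted p = 0.0521), without the first 45 DAF array (1.08) or without the first 50 DAF array (1.40). The expansin EXP4 changed by -4.28 log2 (adjusted p = 0.0146), from 999 and 244 to 6.55 and 98.9, and was likewise not called without the first 45 DAF array (-2.72, adjusted p = 0.0981) or the first 50 DAF array (-2.12, adjusted p = 0.0849). The other fall, of the expansin EXP2 (GmaAffx.93176.1.S1_at), was -2.66 log2 among dim signals (adjusted p = 0.0255) and was not called without any one of the 45 or 50 DAF arrays (adjusted p = 0.0616 to 0.107) or with 50 added (-0.81, adjusted p = 0.136). The list of small secreted defence peptides held HPS, a hydrophobic cysteine-rich protein of the seed surface, with 55179 and 14670.1 at 45 DAF and 242 and 144 at 50 DAF (change -7.25 log2, adjusted p = 9.78e-05). The list for abscisic acid held ZEP, an epoxidase of its synthesis, which was not called (0.67, adjusted p = 0.238).

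By the study's own homology annotation, which was made for probe sets it had called, GASA13 matched the Arabidopsis locus AT1G22690 and 1 unnamed probe set matched the GASA locus AT2G30810. The latter (GmaAffx.10629.1.S1_s_at), no member by its symbol, gave 2789 and 3182 at 25 DAF, 820.1 and 2434 at 30 DAF, 10.9 and 20.0 at 40 DAF, 149.8 and 61.2 at 45 DAF, and 80.2 and 72.9 at 50 DAF. The loss was complete by 40 DAF, when no named member had passed a fall in the fit of all 10 arrays. Its change from 30 to 40 DAF was -6.58 log2 (adjusted p = 0.00484 in limma), and was not called without the second 30 DAF array (-5.75, adjusted p = 0.0927) or the second 40 DAF array (-6.98, adjusted p = 0.0671), or without the variance trend (adjusted p = 0.124).

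Markers of other tissues and of drying moved over the same ages. Of 5 probe sets for seed coat and seed surface genes, 3 fell from 45 to 50 DAF (12.6% of all probe sets) and 4 from 25 to 50 DAF (19.3%). Their summed signal was 139963 to 142372 at 25 DAF, 82560 on the first and 34352 on the second 45 DAF array and 12770 to 14282 at 50 DAF, and none was listed at 0. Of 5 probe sets of the photosynthetic gene CAB3, 3 fell and 1 rose from 45 to 50 DAF (12.6% and 18.6% of all), with a summed signal of 18547 to 34119 at 45 DAF and 3585 to 4328 at 50 DAF. Of 5 late maturation genes, 4 rose over that step (18.6% of all), and their summed signal was 64958 on the first and 203233 on the second 45 DAF array and 320035 to 358722 at 50 DAF. The part of these tissues and of drying in the GASA losses was not tested.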

How the data were processed

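RNA of whole Evans seeds was hybridised to Affymetrix soybean arrays, 2 per age and 10 in all. The deposited values are linear MAS 5.0 signal intensities, globally scaled by the authors, without detection calls, and no depth applies to arrays, whose number limits the precision. All 37593 probe sets were kept. Following the study's methods, log2 intensities were centred on each array's median. limma 3.58.1 in R 4.3.3 was fitted with age and replicate number as fixed effects and a variance trend (4 residual degrees of freedom), with Benjamini-Hochberg adjustment over all probe sets, calling ages together under 0.01 and contrasts under 0.05. The fit was tested on simulated data.

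Probe sets were named through the probe-to-gene table, in which 8677 had 1 symbol, 370 several and 28546 none, and only those with 1 were named. The RefSeq table is of assembly Glycine_max_v4.0. All GASA probe sets are named. They were classed as low (mean under 50 at every age), late loss (a fall from 45 to 50 DAF), gain or no called change, and for each the 3 most correlated genes were ranked. Up to 4 genes of each list were to be named by the smallest adjusted p, and the others named here were chosen with their values seen. Members and lists were chosen with earlier results of these data known. The labels call the replicates biological, with nothing on how their plants were divided, so p-values measure the spread between these samples. The labels' 40 DAF was used for the third age, which the study's text also gives as 35. Alternatives were no replicate term, quantile normalization, signals as deposited, no variance trend, 50 added, a filter at the median signal, the methods' F-test with Benjamini-Hochberg adjustment and, chosen after seeing the data, with q-values, and leaving out each array. Calculations used Python 3.11.15.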

Additional observations from a re-analysis of the deposited data

How the results depend on the processing

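Over all ages, the 10 GASA probe sets called became 0 without the variance trend and 0 by the methods' F-test after Benjamini-Hochberg adjustment, where of all probe sets 0 were also called and 8713 and 6389 had an unadjusted p under 0.01. The study's methods convert these p-values to q-values. A smoothed q-value, chosen after seeing the data, called 1 member, GASA12, and 2132 of all probe sets under 0.01. GASA13, which is in the study's annotation of called probe sets, had a q-value of 0.0103 here. The q-values used here thus did not match the study's own in full. Leaving out 1 array gave 2 to 11 (1613 to 12298 of all probe sets, against 9009). From 30 to 40 DAF, 0 became 1 without the replicate block, after quantile normalization, with 50 added and with the filter, each time a rise of the shared GASA14 probe set. Leaving out 1 array gave 0 to 4 for that step (0 to 2447 of all, against 436, which became 0 without the variance trend, 667 without the replicate block and 761 with 50 added). From 40 to 45 DAF it gave 0 to 2 (0 to 1194 of all, against 0), from 45 to 50 DAF 7 to 10 (5646 to 13193, against 11743), from 25 to 50 DAF 9 to 12 (10961 to 18051, against 16504), and from 25 to 30 DAF 0 throughout. On the signals as deposited, 0 members rose and 11 fell from 25 to 50 DAF, against 2 and 9.

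Replicate numbers did not pair the samples, since differences between replicates at 2 ages correlated between -0.034 and 0.030 over 10 pairs of ages. Without the replicate block, 11 members were called over time, 0 from 25 to 30 DAF, 1 from 30 to 40 DAF, 0 from 40 to 45 DAF, 10 from 45 to 50 DAF and 12 from 25 to 50 DAF.

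Without the variance trend the changes described for the GASA14 probe sets, the falls of GASA13 and GASA29 from 25 to 45 DAF and those of GASA22 and GASA29 from 40 to 50 DAF were not called (adjusted p = 0.0769 to 0.184), nor were the steps described for GA2OX8, GA2OX6 and EXP1 and EXP4 from 45 to 50 DAF and for GAI1 and the unnamed GASA homologue from 30 to 40 DAF (0.0532 to 0.220). No called value of a single probe set turned its direction, and of 977 such values under alternatives 90 lost the call without 1 array and 50 under another setting, for causes not tested. With 2 arrays per age and no detection calls, changes among dim probe sets could not be resolved.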
